A study of Mus musculus with 24 samples.

Results

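The genes described here encode cell adhesion molecules of the immunoglobulin superfamily (Dscam, Dscaml1, Jam2 and Igsf5), secreted metalloproteases of the extracellular matrix (Adamts1 and Adamts5) and a glycosyltransferase (B3galt5). They are 7 gene symbols, taken by name and position with earlier results of these data known, and they account for 8 of the 55385 genes of the count table, since Igsf5 has 2 identifiers. Of the 7 genes, 6 lie in the Mmu16 segment that is triplicated in Ts65Dn mice, from Mir155 to Zbtb21, which holds 286 annotated genes, 133 of them protein coding. Dscaml1, the paralogue of Dscam, lies on chromosome 9 and is disomic in both genotypes.

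Ts65Dn mice carry a small extra chromosome with this distal part of Mmu16 and with a proximal part of Mmu17 (Scaf8 to Pde10a) that is not homologous to human chromosome 21, so an effect of either part cannot be told apart from the other here. The mice were males of 5 to 6 months on an F1 B6C3B background, and the wt mice were littermates with 2 copies of these segments; no mouse was treated. The hippocampus (HIP) and the entorhinal cortex (EC) of 6 wt and 6 Ts65Dn mice were flash frozen and sequenced as whole tissue, which gave 24 libraries from 12 mice, 1 per region and mouse. Library totals lay between 23128589 and 40476492 counts on genes, with group medians of 28628982 in the wt HIP, 27451344 in the Ts65Dn HIP, 28366372 in the wt EC and 30580057 in the Ts65Dn EC.

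Dscam and Dscaml1 are large transmembrane proteins that bind their own kind across cells. Neurites that carry the same Dscam recognise and avoid each other, and Dscam also acts with Dcc as a receptor for netrin, the cue that guides axons across the midline. Jam2 is a junctional adhesion molecule of endothelial and other cells that pairs with Jam3, whereas Igsf5 (also called JAM4) is best known from kidney and gut epithelia. Adamts1 and Adamts5 cut the lecticans, the chondroitin sulfate proteoglycans that fill the space around neurons, and B3galt5 adds galactose in a beta1,3 linkage to N-acetylglucosamine on glycoproteins and glycolipids.

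Along Mmu16 the triplicated members stand in separate groups. Jam2 (ENSMUSG00000053062, chr16:84774123-84825928, + strand, GRCm38) lies nearest to the centromere. Adamts1 (ENSMUSG00000022893, chr16:85793827-85803113, - strand) and Adamts5 (ENSMUSG00000022894, chr16:85856173-85901828, - strand) follow 968 kb further on, and are neighbours on the same strand with 53.1 kb and 0 other protein-coding genes between them. After a further 10300 kb come B3galt5 (ENSMUSG00000074892, chr16:96235801-96319859, + strand), Igsf5 (ENSMUSG00000000159, chr16:96361668-96422121, + strand) and Dscam (ENSMUSG00000050272, chr16:96590840-97170752, - strand). Dscaml1 (ENSMUSG00000032087) spans chr9:45426628-45753712 on the + strand. A second Igsf5 identifier, ENSMUSG00000117081, runs over Igsf5 and the neighbouring Pcp4 and had a count of 0 in all 24 libraries, so it was not used further. Of its 1031 exon bases, 788 are also exon of Igsf5 and 243 of Pcp4. It has no exon base of its own, so its count of 0 does not show that it is not expressed.

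Since Dscam and Dscaml1 are paralogues, the question arises whether reads of one could be counted on the other. Among all windows of 50 bases, the read length of the study, 8798 distinct windows of annotated Dscam transcripts and 9039 of Dscaml1 transcripts (GENCODE vM21) had 0 in common. The same held for Jam2 against Jam3, with 6044 and 3145 windows, and for Adamts1 against Adamts5, with 5253 and 10742 windows. The longest run of identical coding bases in Dscam (6039 coding bases) and Dscaml1 (6333) was 21 bases, shown in capitals with its flanks because it is the place where the paralogues are hardest to tell apart; it lies in exon 8 of 33 in both genes, at chr16:96819878-96819922 on the - strand and chr9:45674528-45674572 on the + strand.
Dscam: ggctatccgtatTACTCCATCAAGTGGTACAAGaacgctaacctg
Dscaml1: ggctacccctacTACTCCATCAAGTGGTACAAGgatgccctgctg
A read of the stated length that covers the whole run thus also holds bases in which the genes differ. Genes on the opposite strand within Dscam had total counts of at most 112 over the 24 libraries, against 65465 for Dscam itself.

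The zinc-binding site is what makes Adamts1 and Adamts5 proteases, and it is shown beside that of their disomic relative Adamts4, another lectican-cutting enzyme used below for comparison. Capitals mark the codons of the 3 histidines that hold the zinc. Each stretch crosses an intron, so its genomic span is longer than the sequence. The spans are chr16:85799191-85799545 (- strand, exons 3 and 4) for Adamts1, chr16:85878015-85887826 (- strand, exons 2 and 3) for Adamts5 and chr1:171253210-171253915 (+ strand, exons 3 and 4) for Adamts4.
Adamts1: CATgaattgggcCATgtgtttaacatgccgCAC
Adamts5: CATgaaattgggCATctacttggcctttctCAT
Adamts4: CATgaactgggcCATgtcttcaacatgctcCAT
The neighbours Adamts1 and Adamts5 share no coding run longer than 13 bases.

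Before any comparison, the labels were set against the data. Dissection was checked with 5 hippocampal genes (Prox1, C1ql2, Dsp, Spink8 and Fibcd1), whose summed level was 409 to 515 CPM (the share of a library's counts, scaled by TMM) in the wt HIP and 366 to 564 in the Ts65Dn HIP, but 23.9 to 34.2 in the wt EC and 27.4 to 31.7 in the Ts65Dn EC. By these genes the HIP and EC libraries matched their region labels in all 24 cases, with no overlap between the regions. Replicate 3 of Ts65Dn had the lowest HIP sum, 366 CPM, below all wt HIP libraries.

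The genotype label of 1 mouse did not match its data. Over 80 protein-coding genes of the Mmu16 segment, the median level relative to the wt mean was 1.43 to 1.54 in 5 HIP libraries of Ts65Dn mice and 1.46 to 1.51 in 5 of their EC libraries. For the mouse labelled Ts65Dn replicate 3 it was 1.02 (HIP) and 1.0 (EC), inside or next to the range of the wt libraries, 0.984 to 1.01 (HIP) and 0.982 to 1.01 (EC). Over 5 triplicated members (without Igsf5), its medians were 1.02 (HIP) and 1.06 (EC), whereas the other Ts65Dn libraries stood between 1.39 and 1.62. Both libraries of this mouse kept their label and entered each test, and the filtered edgeR tests of the members between genotypes are also given without it, while those by DESeq2 are given with all mice only. This mouse is set aside for its low triplicated genes, which by itself raises most folds of the triplicated members and lowers most of their adjusted p. Their values without it are descriptions. Where the other 5 Ts65Dn libraries are set apart from wt below, the share over all genes was not counted.

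**Figure D1:**
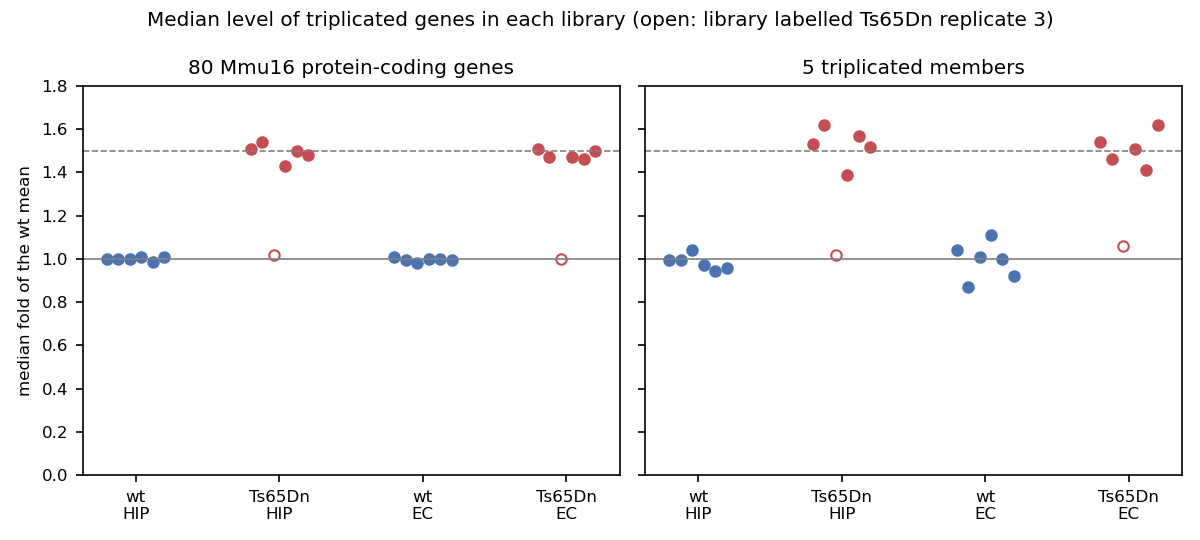
Each point is 1 library, and the y axis is the median, over 80 protein-coding Mmu16 genes (left) or 5 triplicated members (right), of the level divided by the wt mean of the same region. The open points of the library labelled Ts65Dn replicate 3 lie at 1.0 to 1.06, near the wt line at 1, and the other Ts65Dn libraries lie around the dashed line at 1.5.

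Which of these genes were high in which region was compared per length, as RPKM (CPM per kb of the gene's merged exons). In the wt HIP the order was B3galt5 (15.9 ± 1.48 RPKM, SD, n = 6), Dscaml1 (11 ± 0.985), Dscam (8.50 ± 0.511), Jam2 (7.85 ± 0.472), Adamts1 (5.78 ± 0.534), Adamts5 (0.193 ± 0.0497) and Igsf5 (0.152 ± 0.0789). Dscam and Jam2 overlapped there, as did Adamts5 and Igsf5, and the other neighbours in this order did not. Igsf5 was divided by all its 2523 exon bases, though its counts may rest on 1735 of them. Its level per length may thus be understated in both regions, and its order against Adamts5 in the wt HIP is uncertain. In the wt EC, Jam2 stood first at 9.07 ± 0.516 RPKM, overlapping with Dscam at 8.50 ± 0.981. They were followed by Dscaml1 (5.74 ± 0.300), B3galt5 (4.40 ± 0.504), Adamts1 (2.52 ± 0.199), Adamts5 (0.282 ± 0.0398) and Igsf5 (0.0661 ± 0.0484), none of which overlapped with the next. B3galt5 was thus the member with the highest level per length in the wt HIP and only the fourth in the wt EC.

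**Figure D2:**
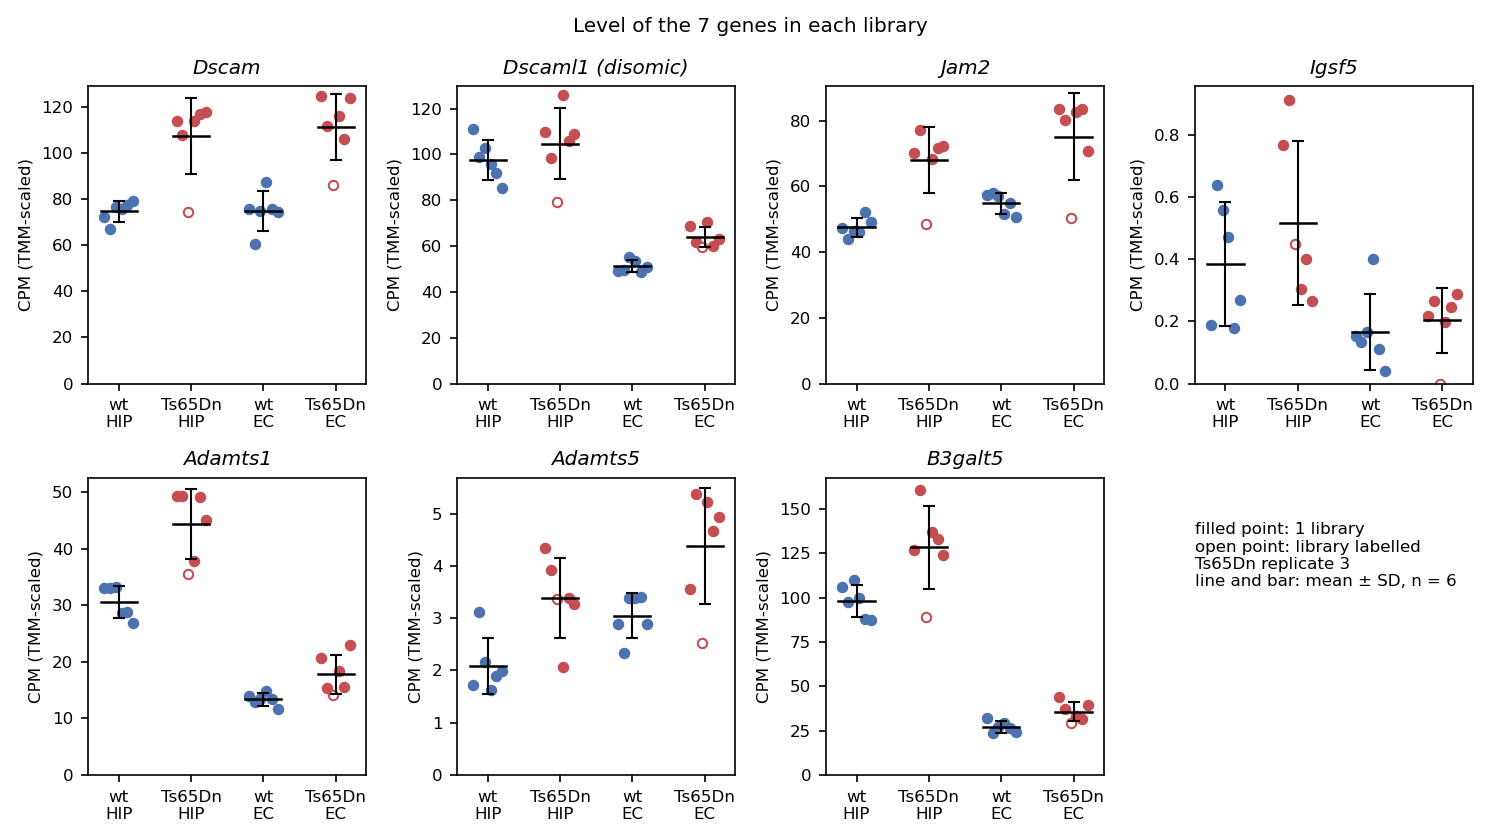
Each panel gives the level of 1 gene (CPM, TMM scaled, y axis from 0) in each library of the 4 groups on the x axis, with the group mean and SD (n = 6). Open points are the library labelled Ts65Dn replicate 3, which lies with the wt libraries for Dscam, Jam2 and B3galt5, while B3galt5 and Adamts1 are higher in the HIP than in the EC in both genotypes.

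The main question was whether the triplicated members were higher in Ts65Dn than in wt, and by how much against the 1.5-fold that 3 copies in place of 2 would give. In the HIP, 3 of the 6 triplicated members tested were DEGs by edgeR's quasi-likelihood test (Benjamini-Hochberg adjusted p under 0.05), all higher in Ts65Dn: Dscam, Jam2 and Adamts1. In the EC, 2 of the 5 tested were DEGs, Dscam and Jam2. DESeq2 called 5 in the HIP, with Adamts5 and B3galt5 in addition, and 4 in the EC, with Adamts1 and B3galt5 in addition. Over all genes tested, 0.542% were higher and 0.501% lower DEGs in the HIP (1.04% in either direction), while the EC had 1.15% higher and 1.35% lower (2.5% in either direction). Over the protein-coding genes of the Mmu16 segment the shares of higher DEGs were 53.2% of 79 genes for the HIP and 55.8% of 77 for the EC. By DESeq2, 1.65% of all genes with an adjusted p were higher and 1.93% lower in the HIP (3.58% in either direction), against 3.25% and 4.18% for the EC (7.43%), and over the segment's protein-coding genes the shares were 80% of 75 and 78.6% of 70. Without the library labelled Ts65Dn replicate 3, 4 of 6 members were DEGs in the HIP (B3galt5 in addition) and 5 of 5 in the EC, beside 73.4% and 77.9% of the segment's protein-coding genes and 1.06% and 1.42% of all genes. Since that library was set aside for its low triplicated genes, these higher counts are no further support for a rise of the members. The count of members fell to 1 in the HIP without Ts65Dn replicate 6 or without wt replicate 3, with Adamts1 left. In the EC it fell to 1, Dscam, without any 1 of Ts65Dn replicates 1, 2, 4 and 5 or wt replicates 1, 3, 4, 5 and 6. Whole tissue was sequenced, so a change in the number of cells that use a gene cannot be told apart from a change in RNA per cell.

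Dscam was higher in Ts65Dn in both regions. Its level was 67.0 to 79.4 CPM (median 76.2) in the wt HIP and 74.5 to 118 (median 114) in the Ts65Dn HIP. Only the library labelled Ts65Dn replicate 3, at 74.5 CPM, lay among the wt libraries, and the other 5 were at 108 or above. Its fitted log2 fold change (log2FC) was 0.53 (standard error, SE, 0.09, adjusted p = 0.0218 by edgeR), a 1.44-fold difference with a 95% interval of 1.25 to 1.66, and without that library it was 0.61 (SE 0.05, adjusted p = 9.75e-06), or 1.53-fold (1.42 to 1.64). The call was lost by a narrow margin without wt replicate 2, wt replicate 3 or Ts65Dn replicate 6 (edgeR adjusted p = 0.0520, 0.0533 and 0.0536).

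In the EC, Dscam was at 60.4 to 87.5 CPM (median 75.4) in wt and 86.2 to 125 (median 114) in Ts65Dn. Again 5 of the 6 Ts65Dn libraries were at 106 CPM or above. The library labelled replicate 3, at 86.2, lay within the wt range, so the groups overlapped. Dscam had a log2FC of 0.57 (SE 0.09, edgeR adjusted p = 0.00978), or 1.48-fold (1.29 to 1.70), and it stayed a DEG whichever of the 12 mice was left out. Without the library labelled Ts65Dn replicate 3 it was 1.55-fold (1.38 to 1.74).

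Dscaml1, with 2 copies in both genotypes, was a DEG in the EC and not in the HIP. In the EC it was at 48.5 to 55.2 CPM (median 50.2) in wt and 59.6 to 70.5 (median 62.5) in Ts65Dn. The groups did not overlap, and the library labelled Ts65Dn replicate 3, at 59.6 CPM, also lay above all wt libraries, unlike for the 6 triplicated members in this region. Of all genes tested in the EC, 1.27% were higher and 1.18% lower in Ts65Dn without overlap of the libraries. The log2FC was 0.31 (SE 0.06, edgeR adjusted p = 0.0134), or 1.24-fold (1.15 to 1.35), below 1.5 over its whole interval, and the call held in each of the 12 fits with a mouse left out. Without the library labelled Ts65Dn replicate 3 it was 1.26-fold (1.16 to 1.37).

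In the HIP, Dscaml1 was at 85.5 to 111 CPM (median 97.3) in wt and 79.2 to 126 (median 108) in Ts65Dn. These ranges overlapped widely, and the library labelled Ts65Dn replicate 3 was the lowest of all 12, as it was for the summed hippocampal genes, whose part in this value was not tested. The log2FC was 0.10 (SE 0.09, edgeR adjusted p = 0.666), an interval of 0.934 to 1.23-fold, and without that library 0.17 (SE 0.07, adjusted p = 0.257). The effects of genotype on Dscaml1 in the HIP and the EC differed by -0.23 on the log2 scale (SE 0.08), with an unadjusted p of 0.0141 and an adjusted p of 1.0 in edgeR's interaction test over 18109 genes, so a difference between the regions was not called, nor was it without the mouse labelled Ts65Dn replicate 3 (-0.17, edgeR adjusted p = 0.763).

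The ratio of Dscam to Dscaml1 within a library does not depend on how libraries are scaled. Its mean log2 value in the HIP was -0.38 ± 0.19 in wt and 0.04 ± 0.12 in Ts65Dn (SD, n = 6), a 1.34-fold difference (two-sided exact permutation test over all splits of the 12 mice, p = 0.00433, adjusted p = 0.0260 over the 6 ratio tests). In wt HIP libraries it ran from -0.61 to -0.11, and in Ts65Dn from -0.13 to 0.15, so the ranges met only at their ends. In the EC the ratio was 0.54 ± 0.15 in wt and 0.79 ± 0.15 in Ts65Dn (exact permutation test, p = 0.0216, adjusted p = 0.0357), a 1.19-fold difference. The smallest p that 6 mice against 6 allow is 0.00216. Once replicate 3 of Ts65Dn was left out, the differences by the same exact test were 0.45 (HIP, p = 0.00649) and 0.30 (EC, p = 0.00433). These p are not adjusted. They are no further support, since that library was set aside for its low triplicated genes, Dscam among them.

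**Figure D3:**
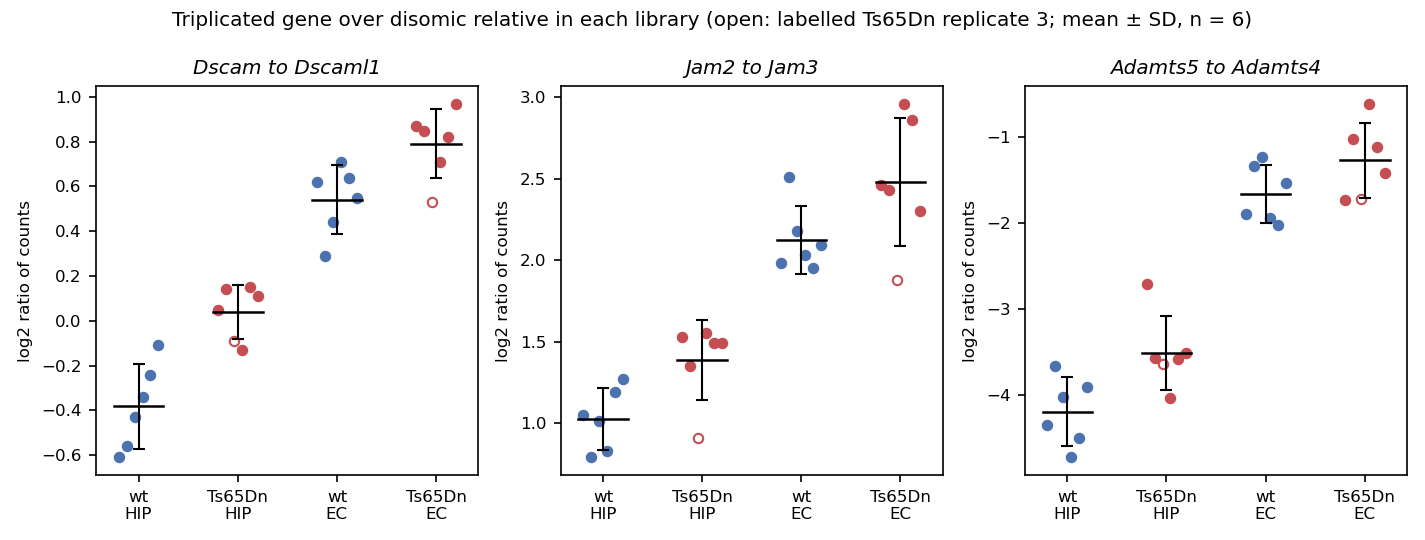
Each point is the log2 ratio of counts (y axis) of a triplicated gene to a disomic relative in 1 library, by group (x axis), with the mean and SD (n = 6); open points are the library labelled Ts65Dn replicate 3. Ts65Dn means lie above wt means in all 3 panels in both regions, and region shifts the ratios more than genotype does, with Dscam to Dscaml1 at -0.38 in the wt HIP and 0.54 in the wt EC.

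Jam2 was a DEG in both regions, on a thinner margin in the EC. It was at 43.9 to 52.2 CPM (median 46.9) in the wt HIP and 48.6 to 77.1 (median 70.8) in the Ts65Dn HIP. Replicate 3 of Ts65Dn had 48.6 CPM, within the wt range, and the other 5 had at least 68.3. Its log2FC was 0.51 (SE 0.09, edgeR adjusted p = 0.0191), or 1.43-fold (1.25 to 1.63), and 0.59 (SE 0.05, adjusted p = 1.84e-05) without that library. The call was lost without Ts65Dn replicate 6 (edgeR adjusted p = 0.0501) and without wt replicate 3 (0.0528).

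In the EC, Jam2 was at 50.6 to 58.0 CPM (median 55.9) in wt and 50.2 to 83.6 (median 81.4) in Ts65Dn. The library labelled Ts65Dn replicate 3 was the lowest of all 12 libraries, so the groups overlapped, and the other 5 Ts65Dn libraries were at 70.7 or above. The log2FC was 0.45 (SE 0.11, edgeR adjusted p = 0.0412), or 1.36-fold (1.17 to 1.59), and without that library it was 1.45-fold (1.34 to 1.58, adjusted p = 0.000107). This call held in only 3 of the 12 fits with 1 mouse left out, those without Ts65Dn replicate 3, Ts65Dn replicate 6 or wt replicate 2, and the adjusted p in the others reached 0.102, without Ts65Dn replicate 1.

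Against Jam3, its disomic partner on chromosome 9, the log2 ratio of Jam2 was 1.02 ± 0.19 in the wt HIP and 1.39 ± 0.24 in the Ts65Dn HIP (exact permutation test, p = 0.0238, adjusted p = 0.0357). In the EC it was 2.12 ± 0.21 in wt and 2.48 ± 0.39 in Ts65Dn (exact permutation test, p = 0.0801, adjusted p = 0.0961). Of the Ts65Dn libraries, the one labelled replicate 3 had the lowest Jam2 to Jam3 ratio in each region, 0.91 and 1.88. Without it, Jam2 to Jam3 differed by 0.46 (HIP, p = 0.00433) and 0.48 (EC, p = 0.0130) in the same exact test, and in the EC by 0.44 without wt replicate 2 (p = 0.0390, exact test). These p are not adjusted, and those without the library set aside for its low triplicated genes are no further support. Jam3 itself had log2FCs of 0.14 (HIP, edgeR adjusted p = 0.399) and 0.07 (EC, 0.783), and adjusted p of 0.395 and 0.806 without that mouse.

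Igsf5 had few counts in either region. Of its 2523 exon bases, 788 (31.2%) are also exon of the second Igsf5 identifier, and reads on bases annotated to a pair of genes can be left uncounted by HTSeq-count, whose mode is not given in the sources used here. Its counts may thus rest on the other 1735 bases and understate its level. They were 5 to 27 per library in the wt HIP and 7 to 31 in the Ts65Dn HIP, and 1 to 11 and 0 to 9 in the EC. The library labelled Ts65Dn replicate 3 had a count of 0 in the EC. This allows a level of up to 0.105 CPM at its depth (3 counts of its total, without TMM scaling). The wt and Ts65Dn libraries overlapped in both regions. In the HIP the log2FC was 0.42 (SE 0.39, edgeR adjusted p = 0.666), an interval of 0.747 to 2.40-fold. At this depth no change and a 1.5-fold change could not be told apart, with or without the library labelled Ts65Dn replicate 3 (0.730 to 2.59-fold). In the EC, Igsf5 did not pass the filter on low counts.

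Adamts1 was the only triplicated member whose groups did not overlap with all libraries in, and this was in the HIP. It was at 26.8 to 33.2 CPM (median 31.0) in wt and 35.5 to 49.4 (median 47.2) in Ts65Dn. The lowest Ts65Dn values were those of the library labelled replicate 3, at 35.5, and of replicate 4, at 37.8. Of all genes tested in the HIP, 0.68% were higher and 0.991% lower in Ts65Dn without overlap. The log2FC of 0.53 (SE 0.09, edgeR adjusted p = 0.0191), or 1.45-fold (1.26 to 1.66), was called in all 12 fits with a mouse left out (adjusted p up to 0.0493, without wt replicate 5). Without the library labelled Ts65Dn replicate 3 it was 1.5-fold (1.33 to 1.70).

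In the EC, Adamts1 was at 11.6 to 14.8 CPM (median 13.4) in wt and 14.1 to 23.0 (median 17) in Ts65Dn. Only the library labelled Ts65Dn replicate 3, at 14.1 CPM, overlapped with wt, though Ts65Dn replicates 2 and 5, at 15.3 and 15.6, were close to it. Adamts1 did not pass the test here (log2FC 0.41, SE 0.11, edgeR adjusted p = 0.0668), and it did without that library (0.47, SE 0.10, adjusted p = 0.0299), or 1.39-fold (1.19 to 1.62). DESeq2 called Adamts1 in the EC with all libraries (adjusted p = 0.0124).

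Adamts5 was expressed at a small fraction of the level of Adamts1, with 46 to 133 counts per HIP library and 69 to 161 per EC library. In the HIP it was at 1.62 to 3.11 CPM (median 1.95) in wt and 2.07 to 4.34 (median 3.37) in Ts65Dn. Here the library labelled Ts65Dn replicate 3, at 3.36 CPM, lay with the other Ts65Dn libraries and above all wt libraries, while Ts65Dn replicate 4, at 2.07, lay within the wt range. The log2FC was 0.69 (SE 0.19, edgeR adjusted p = 0.104), or 1.62-fold (1.22 to 2.15), and Adamts5 was called in none of the 12 edgeR fits with a mouse left out, but by DESeq2 with all libraries (adjusted p = 0.0210). Without that library it was again 1.62-fold (1.2 to 2.20, adjusted p = 0.107).

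In the EC, Adamts5 was at 2.33 to 3.41 CPM (median 3.13) in wt and 2.53 to 5.38 (median 4.79) in Ts65Dn. All Ts65Dn libraries but the one labelled replicate 3 lay above the wt range, the nearest at 3.55 CPM. The log2FC was 0.51 (SE 0.17, edgeR adjusted p = 0.127) with all libraries and 0.63 (SE 0.14, adjusted p = 0.0266) without that one, or 1.55-fold (1.26 to 1.90). DESeq2 did not call it with all libraries (adjusted p = 0.0530).

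Adamts4, the disomic relative of Adamts5 with the same kind of substrate, was at 37.7 ± 5.29 CPM in the wt HIP and 38.3 ± 6.34 in the Ts65Dn HIP (SD, n = 6), and at 9.98 ± 3.11 and 10.4 ± 2.01 in the EC. Its log2FCs were 0.02 and 0.05 (edgeR adjusted p = 0.963 and 0.923, and 0.824 or above without the mouse labelled Ts65Dn replicate 3). The log2 ratio of Adamts5 to Adamts4 was -4.19 ± 0.40 in the wt HIP and -3.51 ± 0.43 in the Ts65Dn HIP (exact permutation test, p = 0.0152, adjusted p = 0.0357). In the EC it was -1.66 ± 0.34 and -1.27 ± 0.44 (exact permutation test, p = 0.110, adjusted p = 0.110). In both regions the ranges of the groups overlapped. Without the library labelled Ts65Dn replicate 3, the differences by the same exact test were 0.71 (HIP, p = 0.0195) and 0.48 (EC, p = 0.0606). These p are not adjusted and are no further support, since that library was set aside for its low triplicated genes.

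B3galt5 was not a DEG by edgeR in either region with all mice in. It was at 87.6 to 110 CPM (median 99) in the wt HIP and 88.9 to 161 (median 130) in the Ts65Dn HIP. The library labelled Ts65Dn replicate 3, at 88.9 CPM and with the lowest sum of hippocampal genes, lay at the low end of wt, so the groups overlapped. The other 5 were at 124 or above. The log2FC was 0.38 (SE 0.11, edgeR adjusted p = 0.117) with all libraries, and 0.47 (SE 0.08, adjusted p = 0.00742) without that one, or 1.38-fold (1.23 to 1.55). DESeq2 called B3galt5 with all libraries in both regions (adjusted p = 0.0320 in the HIP and 0.00770 in the EC). In the EC, B3galt5 was at 23.6 to 31.9 CPM (median 26.7) in wt and 29.3 to 44.1 (median 35.2) in Ts65Dn. Besides the library labelled replicate 3, Ts65Dn replicate 5, at 31.4 CPM, lay within the wt range. The log2FC was 0.39 (SE 0.10, edgeR adjusted p = 0.0550), and 0.45 (SE 0.10, adjusted p = 0.0255) without replicate 3, or 1.36-fold (1.18 to 1.57).

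Set side by side, the fitted folds of the triplicated members tested (6 in the HIP, and 5 in the EC, where Igsf5 was not) ranged from 1.30 to 1.62 (median 1.43) for the HIP and from 1.31 to 1.48 (median 1.36) for the EC. The median over the protein-coding genes of the segment was 1.42 in both regions, and the median log2FC over all genes tested was 0.00. Without the library labelled Ts65Dn replicate 3, the members' medians were 1.51-fold (HIP) and 1.45-fold (EC), beside 1.48 over the segment in both regions. In that setting the 95% interval of each triplicated member tested included 1.5 in both regions. The library was left out for its low levels of triplicated genes, which in itself raises most of the members' folds. These intervals therefore do not test a departure from 1.5, and smaller departures than these intervals could not be seen.

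**Figure D4:**
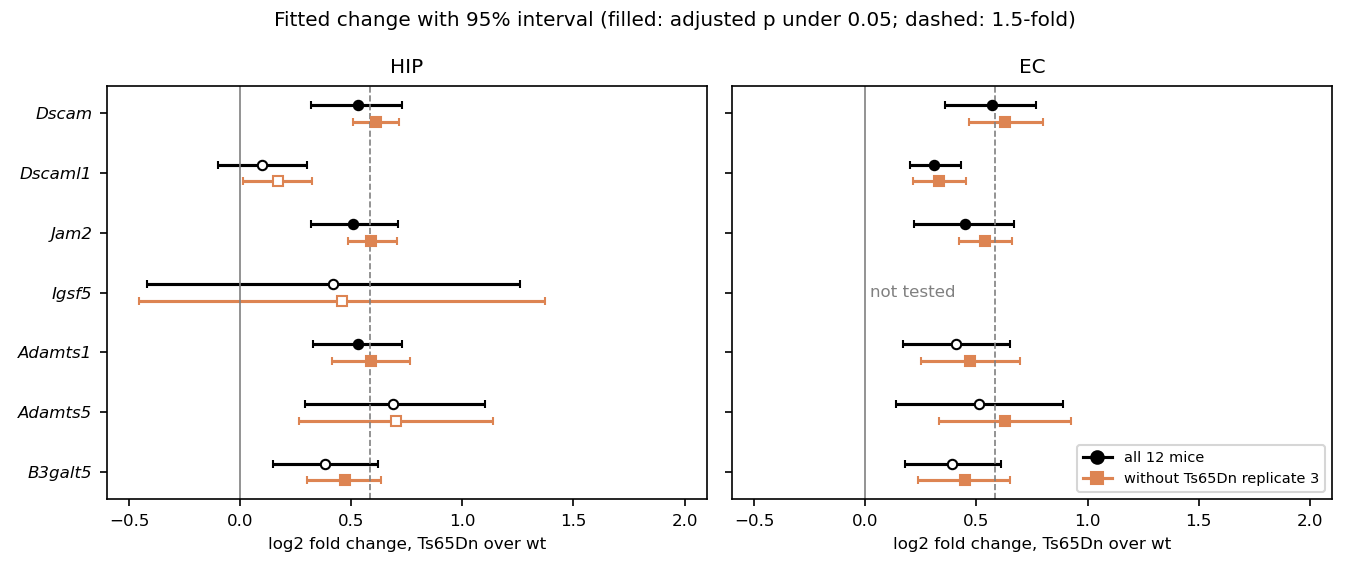
Points are fitted log2FCs of Ts65Dn over wt (x axis) with 95% intervals for the 7 genes (y axis) in the HIP and EC, with all 12 mice (circles) and without Ts65Dn replicate 3 (squares), filled where the adjusted p was under 0.05. All intervals of triplicated members without that mouse cross the dashed 1.5-fold line, whereas the disomic Dscaml1 lies between 0 and that line in the EC.

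Whether genotype acted differently in the HIP and the EC was tested as an interaction with a term for each mouse. By edgeR 0 of 18109 genes were called, 742 (4.1%) had an unadjusted p under 0.05, and DESeq2 also called 0. Of the 7 members, Dscaml1 had an unadjusted p under 0.05. The 95% interval of the difference (log2, effect in the HIP minus that in the EC) was -0.21 to 0.09 for Dscam, -0.09 to 0.23 for Jam2, -0.14 to 0.38 for Adamts1 and -0.26 to 0.21 for B3galt5. For Adamts5 (-0.42 to 0.82) and Igsf5 (-1.30 to 1.49) it was too wide to compare the regions. Without the mouse labelled Ts65Dn replicate 3 the differences were -0.03 for Dscam, 0.05 for Jam2, 0.12 for Adamts1, 0.02 for B3galt5, 0.06 for Adamts5 and -0.16 for Igsf5, with edgeR adjusted p from 0.897 to 0.982.

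The regions themselves differed far more than the genotypes for several members. In wt mice, 5 of the 6 members tested were DEGs between HIP and EC by edgeR with the mouse as a block, 3 higher in the HIP (B3galt5, Adamts1 and Dscaml1) and 2 lower (Adamts5 and Jam2). Of all genes tested, 31% were higher DEGs in the HIP and 30.3% lower, or 61.3% in either direction. In Ts65Dn mice the DEGs among the members were the same 3, all higher in the HIP, beside 26.6% higher, 25.7% lower and 52.3% in either direction.

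B3galt5 had the largest difference between regions. Within single wt mice it was 3.32 to 4.13 times as high in the HIP as in the EC, and within Ts65Dn mice 2.89 to 4.32 times. It was higher in the HIP in all 12 mice. The log2FC of HIP over EC was 1.86 in wt (SE 0.05, edgeR adjusted p = 3.52e-09) and 1.83 in Ts65Dn (SE 0.09, adjusted p = 1.59e-07). Adamts1 was likewise higher in the HIP in all 12 mice, by 1.95 to 2.57 times in wt and 1.96 to 3.22 times in Ts65Dn, with log2FCs of 1.2 (SE 0.06, edgeR adjusted p = 9.01e-08) and 1.32 (SE 0.10, adjusted p = 2.42e-06).

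Dscaml1 was higher in the HIP in all 12 mice too, whereas its paralogue Dscam was not. The log2FC of Dscaml1 was 0.93 in wt (SE 0.05, edgeR adjusted p = 1.89e-07) and 0.70 in Ts65Dn (SE 0.06, adjusted p = 6.33e-06). For Dscam it was 0.00 in wt (SE 0.05, 0.930 to 1.08-fold, edgeR adjusted p = 0.987) and -0.06 in Ts65Dn (SE 0.05, 0.885 to 1.04-fold, adjusted p = 0.387), or -0.03 (adjusted p = 0.695) without the mouse labelled replicate 3. Dscam was higher in the HIP in 4 of 6 wt and 1 of 6 Ts65Dn mice. In the wt HIP, B3galt5, Adamts1 and Dscaml1 had no library in the range of the EC libraries, as had 17.8% of all genes tested on the higher side and 16.4% on the lower. The same 3 did not overlap in Ts65Dn, where the shares were 13.6% and 13.5%. Without the mouse labelled Ts65Dn replicate 3 their log2FCs in Ts65Dn were 1.88, 1.32 and 0.76.

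Jam2 was lower in the HIP in all 6 wt mice, with 0.757 to 0.967 of the EC level and a log2FC of -0.21 (SE 0.05, edgeR adjusted p = 0.00413). In Ts65Dn it was lower in 5 of 6 mice (log2FC -0.14, SE 0.06, adjusted p = 0.0528), and it passed the test without the mouse labelled replicate 3 (adjusted p = 0.0471) or replicate 6 (0.0285), and with DESeq2 size factors (0.0486). Adamts5 was lower in the HIP in 5 of 6 wt mice, with a log2FC of -0.55 (SE 0.18, edgeR adjusted p = 0.0210). That call was lost without wt replicate 1, 3, 4 or 5 (adjusted p = 0.0585, 0.0548, 0.0578 and 0.0649). In Ts65Dn, Adamts5 had a log2FC of -0.35 (SE 0.20, edgeR adjusted p = 0.161) and was lower in the HIP in 4 of 6 mice, and without the mouse labelled replicate 3 the log2FC was -0.49 (SE 0.19, adjusted p = 0.0608). Igsf5 did not pass the filter for this comparison, and its CPM was higher in the HIP in all 6 wt mice. Of the Ts65Dn mice it was higher in 4 of the 5 with counts in both regions, and the mouse labelled replicate 3 had 13 counts in the HIP and 0 in the EC. Without the filter edgeR gave Igsf5 a log2FC of 1.21 in wt (adjusted p = 0.0103) and 1.30 in Ts65Dn (0.00505, that mouse included), on counts of at most 31 per library. By DESeq2 it was not called in wt (1.25, adjusted p = 0.0932) and narrowly called in Ts65Dn (1.37, adjusted p = 0.0494).

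**Figure D5:**
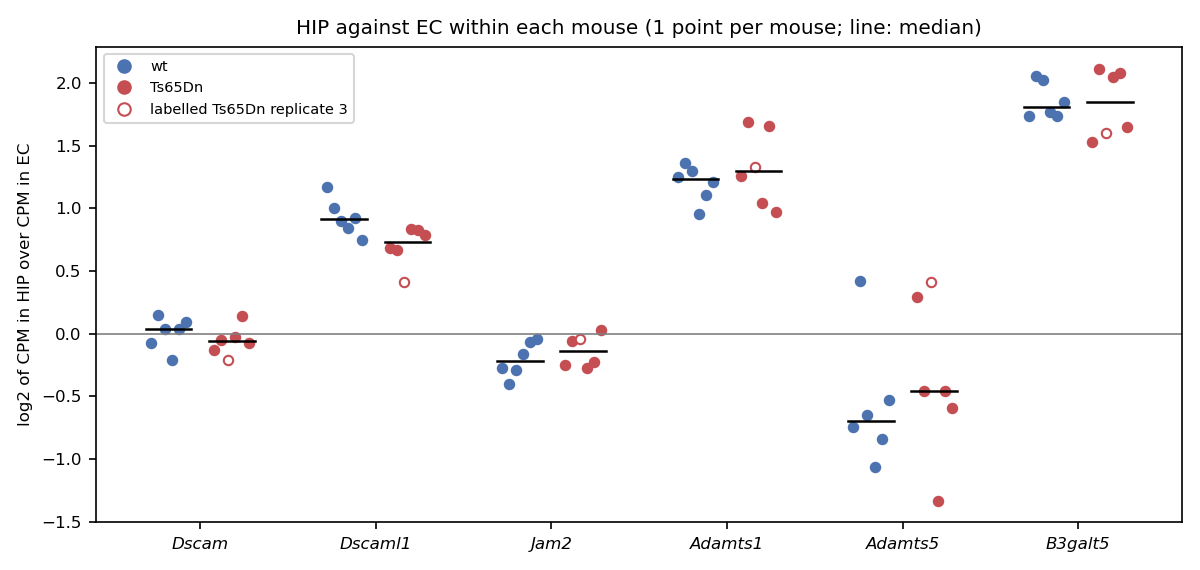
Each point is 1 mouse and gives the log2 of its HIP level over its EC level (CPM, y axis) for the 6 genes with ample counts (x axis), by genotype, with the median as a line. B3galt5, Adamts1 and Dscaml1 lie above 0 in all 12 mice, Dscam lies around 0 and Jam2 at or below it in 11 of 12.

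The makeup of the tissue also differed between regions, and its part in the differences between regions was not tested. Of all genes tested, 31% were called higher and 30.3% lower in the wt HIP. The 9 endothelial genes (most abundant Flt1) were all lower in the wt HIP, with 9 of 9 called and summed levels of 288 to 351 CPM (median 317) against 374 to 478 (median 413) in the wt EC. The 5 oligodendrocyte genes (most abundant Mbp) were all called higher in the wt HIP, at 5701 to 7827 CPM (median 7214) against 1247 to 2363 (median 1889). The 5 choroid plexus genes (most abundant Ttr) were all called higher too, at 90.9 to 4846 CPM (median 1282) against 12.2 to 49.9 (median 14.6). Also called lower in the wt HIP were 5 of 5 microglial, 4 of 4 erythroid, 5 of 6 mural and 4 of 5 neuronal genes. The same held for 4 of 5 striatal genes, 2 of 3 genes of oligodendrocyte precursors and 2 of 5 interneuron genes. Of the 5 astrocyte genes 3 were higher and 2 lower, and of the 7 meningeal fibroblast genes 1 was higher. No gene of these lists was at 0 in any of the groups.

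Between genotypes in the HIP, edgeR called 0 of the 9 endothelial, 6 mural, 7 meningeal fibroblast and 5 choroid plexus genes, with 2, 1, 2 and 0 at an unadjusted p under 0.05, and DESeq2 called 1, Col1a1, higher. The meningeal fibroblast genes (most abundant Dcn) had a median log2FC of 0.62 in the HIP, where their summed level was 39.2 to 91.2 CPM in wt and 42.2 to 169 in Ts65Dn, and -0.00 in the EC. Their part in the levels of Adamts1 and Adamts5 in the HIP was not tested. The library labelled Ts65Dn replicate 3 had 102 CPM of these genes in the HIP, above the wt range.

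Over 13 lists of marker genes, 1 gene was a DEG in each region (1.45% of 69 tested in the HIP, 1.49% of 67 for the EC), beside 1.04% and 2.5% of all genes. At an unadjusted p under 0.05 stood 11 of them in the HIP (15.9%, beside 14.8% of all genes) and 18 in the EC (26.9%, beside 19% of all genes). DESeq2 called 3 in the HIP (4.35%, beside 3.58% of all genes) and 6 in the EC (9.23%, beside 7.43%), among them Syt1 lower and Sst and Adora2a higher in the EC. Both edgeR calls were P2ry12, a purine receptor of microglia, which is named here after its values were seen. It fell by 0.27 on the log2 scale in the HIP (SE 0.06, edgeR adjusted p = 0.0422), from 55.8 ± 3.64 to 46.5 ± 3.26 CPM (SD, n = 6), and by 0.45 in the EC (SE 0.09, adjusted p = 0.0226), from 63.2 ± 9.40 to 46.6 ± 3.97. Without the mouse labelled Ts65Dn replicate 3 the adjusted p was 0.0483 and 0.0309. The HIP call held in 4 of 12 fits with a mouse left out, those without Ts65Dn replicate 2 or 3 or wt replicate 1 or 4, with adjusted p of up to 0.108 in the others (without wt replicate 3), and it was lost without the filter on low counts (0.0627). The EC call held in 9 of 12 and was lost without Ts65Dn replicate 1 (0.0606) or 4 (0.0541) or wt replicate 3 (0.0534). The 5 microglial genes had median log2FCs of -0.01 (HIP) and -0.05 (EC). For the 4 erythroid genes (most abundant Hbb-bs) the medians were -0.38 and -0.81, with 0 called by edgeR or DESeq2, and 0 and 3 at an unadjusted p under 0.05. For the 5 astrocyte genes they were -0.12 and -0.22, with 0 called by edgeR, 2 and 3 at an unadjusted p under 0.05, and Slc1a3 (both regions) and Gja1 (EC) called lower by DESeq2. For the 5 striatal genes the median log2FCs were 0.00 (HIP) and 0.16 (EC), with 0 called by edgeR. Among them, Adora2a had 1.68 in the EC (SE 0.52, edgeR adjusted p = 0.0956), from 2.24 ± 0.859 to 7.20 ± 6.18 CPM. The summed striatal level in the HIP was 86.4 CPM in the library labelled Ts65Dn replicate 3, above the 61.1 to 78.7 of wt. The part of these cell types and of striatal tissue in the members' levels was not tested.

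The other genes of the pathways in which the members act were counted in 6 lists, in which the genes tested between genotypes lie outside the triplicated segments. Cldn8, Cldn14 and Cldn17, claudins of tight junctions, are triplicated and did not pass the filter on low counts. Over the 6 lists, 1 of 117 genes tested was a DEG in the HIP (0.855%), and the EC had 3 of 116 (2.59%), near the 1.04% and 2.5% of all genes, and these counts were the same without the mouse labelled Ts65Dn replicate 3. At an unadjusted p under 0.05 stood 17 (14.5%) and 15 (12.9%) of them, beside 14.8% and 19% of all genes. DESeq2 called 4 in the HIP (3.54% of 113 with an adjusted p) and 7 in the EC (6.48% of 108), beside 3.58% and 7.43% of all genes. Of 25 neuronal adhesion molecules of the immunoglobulin superfamily, 0 were higher and 1 lower in the Ts65Dn HIP (median log2FC -0.06) and 0 higher and 2 lower in the EC (median -0.04), with 8 and 6 at an unadjusted p under 0.05. DESeq2 called 1 (4%) and 3 (12%) of the 25, all lower, with Cntn3 in the EC in addition to those of edgeR. Cadm2, a synaptic adhesion molecule encoded on the disomic part of chromosome 16, fell by 0.43 on the log2 scale in the EC (SE 0.08, edgeR adjusted p = 0.0134), from 454 ± 38.6 CPM to 340 ± 36.7 (SD, n = 6), and was called in all 12 fits with 1 mouse left out. Negr1, a GPI-anchored member of the IgLON family, fell by 0.24 in the EC (SE 0.05, adjusted p = 0.0316). Its call was lost without the filter on low counts (edgeR adjusted p = 0.0505), and also without Ts65Dn replicates 1 or 4 or wt replicates 1, 3, 4, 5 or 6, with adjusted p from 0.0507 to 0.0866. Alcam fell by 0.31 in the HIP (SE 0.06, adjusted p = 0.0338), and kept the call in 2 of 12 such fits, those without Ts65Dn replicate 3 (0.0405) or 5 (0.00142). Its adjusted p in the others ranged from 0.0553 to 0.0897. The counts between regions given from here on stand beside 31% of all genes called higher and 30.3% called lower in the wt HIP. Of the 25 adhesion molecules, 6 were higher (24%) and 18 lower (72%), the most distant being the contactins Cntn6 (log2FC -2.14, SE 0.11, edgeR adjusted p = 1.08e-07) and Cntn4 (-1.44, SE 0.13, 5.51e-06) and again Negr1 (-1.48, SE 0.04, 1.65e-09).

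Of 15 netrin ligands, receptors and effectors of Dscam, edgeR called 0 in either region, with 1 in the HIP and 3 in the EC at an unadjusted p under 0.05. DESeq2 called Ntn1 in the HIP and Unc5a in the EC, both higher. Pak1, a kinase that Dscam binds, had log2FCs of 0.14 (HIP, edgeR adjusted p = 0.515) and -0.05 (EC, 0.564), and Cdc42, the small GTPase that activates it, of -0.04 and -0.09 (0.752 and 0.324). Between regions, 5 of these genes were called higher (33.3%) and 7 lower (46.7%) in the wt HIP. The netrin receptor Unc5d was lower by a log2FC of -1.60 (SE 0.04, edgeR adjusted p = 2.09e-09), Unc5b was higher by 1.49 (SE 0.07, adjusted p = 6.42e-08), and Pak1 had a log2FC of -1.04 (SE 0.07, adjusted p = 7.44e-07).

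Among 16 tested genes of the JAM family and tight junctions, edgeR called 0 in either region, with 1 and 2 at an unadjusted p under 0.05, and DESeq2 called 0 in the HIP and 1, Tjp1, in the EC. Tjp1, the scaffold of tight junctions, had an edgeR log2FC of -0.13 in the EC (adjusted p = 0.0784). Magi1, a scaffold that binds Igsf5, had -0.11 in the HIP and 0.08 in the EC (edgeR adjusted p = 0.493 and 0.631). In wt mice Jam3 was higher in the HIP by 0.89 (SE 0.08, edgeR adjusted p = 6.48e-06), the opposite direction to its partner Jam2. Pard3, a polarity protein that binds JAMs, was higher in the HIP by 0.98 (adjusted p = 2.96e-07), and Lnx1, a ubiquitin ligase, was lower with a log2FC of -0.80 (3.14e-05). Of the 16 genes, 5 were called higher (31.2%) and 6 lower (37.5%) in the wt HIP.

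No other ADAMTS gene was called between genotypes by edgeR or DESeq2, among 22 tested in the HIP and 20 in the EC, of which 2 and 1 had an unadjusted p under 0.05 in edgeR. Adamts3, which cuts procollagen and reelin, had log2FCs of -0.11 and 0.06 (edgeR adjusted p = 0.632 and 0.904). Between regions 10 were higher (50%) and 6 lower (30%) in the wt HIP of 20 tested. Adamts4 was higher in the HIP by 1.95 (SE 0.12, edgeR adjusted p = 4.93e-07) and Adamtsl4 by 2.00 (SE 0.12, adjusted p = 3.51e-07), while Adamts13, the protease of von Willebrand factor, was lower by a log2FC of -2.18 (SE 0.20, adjusted p = 6.26e-06). In wt mice Adamts1 and Adamts4 were thus higher in the HIP and Adamts5 in the EC. The call of Adamts5 held in only 2 of 6 fits with a mouse left out, and it was not made in Ts65Dn (edgeR adjusted p = 0.161).

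Of the substrates and inhibitors of these proteases, edgeR called 0 of 23 in the HIP (2 at an unadjusted p under 0.05, 0 by DESeq2) and 1 of 24 in the EC. That gene was Hapln1, the link protein that fastens lecticans to hyaluronan, which fell by 0.39 in the EC (SE 0.08, edgeR adjusted p = 0.0303), from 34.7 ± 2.72 CPM to 26.7 ± 3.34 (SD, n = 6). The call held in 5 of 12 fits with 1 mouse left out, the one without Ts65Dn replicate 3 included (adjusted p = 0.0398), and was lost without Ts65Dn replicates 1, 2 or 4 or wt replicates 1, 3, 4 or 6 (up to 0.0742). Lrp1, the receptor that clears Adamts5 from the matrix, had log2FCs of 0.14 and 0.04 (edgeR adjusted p = 0.569 and 0.829). Between regions 6 of 23 were called higher (26.1%) and 8 lower (34.8%) in the wt HIP. Timp2, a metalloprotease inhibitor, was lower in the HIP by a log2FC of -1.21 (edgeR adjusted p = 1.16e-07), and Hapln2 and the hyaluronan synthase Has3 were higher by 2.55 and 1.44 (1.68e-07 and 3.52e-06).

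Of 16 beta1,3-glycosyltransferases tested beside B3galt5, edgeR called 0 in either region, with 3 and 2 at an unadjusted p under 0.05. DESeq2 called B3galt2 and B3galnt1 lower in the HIP and C1galt1 lower in the EC. B3galt2 had an edgeR log2FC of -0.22 in the HIP (adjusted p = 0.113) and B3galt1 of -0.06 (0.589). Between regions 2 were higher (12.5%) and 6 lower (37.5%) in the wt HIP, with B3gnt9 higher by 0.81 and B3galnt2 by 0.79 (edgeR adjusted p = 0.000710 and 7.80e-06) and B3galnt1 lower by a log2FC of -0.61 (1.03e-06). None of these came near the 1.86 of B3galt5.

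Within groups the members did not vary as 1 set. Over 22 libraries (without both of the mouse labelled Ts65Dn replicate 3), log2 levels were taken as deviations from the 4 group means, and the 15 pairs of the 6 members with ample counts had Pearson correlations from -0.31 (Dscaml1 with Jam2) to 0.57 (Adamts1 with B3galt5), with a median of -0.01. The neighbours Adamts1 and Adamts5 had 0.34. Both libraries of each mouse enter, so the points are not independent and the values are descriptions. Among 13266 protein-coding genes outside the triplicated segments, those most like each member by the same measure were Btbd8, Pde4dip and Kif21a for Dscam (r = 0.862, 0.856 and 0.846), Supt5, Madd and Faah for Dscaml1 (0.836, 0.805 and 0.752), and Tpmt, Acsbg1 and Axl for Jam2 (0.809, 0.778 and 0.757). For Adamts1 they were Amer1, Zfp113 and Fam84b (0.839, 0.781 and 0.769), for Adamts5 Myo5c, Sfrp1 and Kif16b (0.776, 0.756 and 0.749), and for B3galt5 Kif13b, Camkk1 and Sept4 (0.905, 0.877 and 0.856). The highest of 13266 correlations can be large for unrelated genes too. How large was not tested, so these names do not show that the genes vary with a member.

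Promoter windows from RefSeq were used here for 3 of the 7 genes (Adamts1, Dscam and B3galt5). Those of Adamts1 and Dscam, which have 1 window each, are shown, 250 bases before the start on the - strand of GRCm38.p6, at chr16:85803114-85803363 and chr16:97170736-97170985. Capitals mark matches on either strand to TATAAA (the TATA box), to GGGCGG (the core bound by Sp1) and to CACGTG (an E-box), which did not overlap each other.
Adamts1: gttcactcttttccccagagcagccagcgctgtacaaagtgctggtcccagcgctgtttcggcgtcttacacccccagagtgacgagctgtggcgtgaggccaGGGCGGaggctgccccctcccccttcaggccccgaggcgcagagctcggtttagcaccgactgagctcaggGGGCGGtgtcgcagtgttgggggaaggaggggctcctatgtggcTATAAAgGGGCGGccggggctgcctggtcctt
Dscam: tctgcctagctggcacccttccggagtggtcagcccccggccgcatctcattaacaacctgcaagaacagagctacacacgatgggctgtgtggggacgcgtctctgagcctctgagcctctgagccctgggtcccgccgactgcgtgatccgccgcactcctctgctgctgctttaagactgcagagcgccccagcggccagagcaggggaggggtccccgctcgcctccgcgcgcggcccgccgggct
The Adamts1 window held 1 TATAAA and 3 GGGCGG and had 65.6% G and C, and the Dscam window, at 68% G and C, held none of the 3 motifs. B3galt5, the member with the largest difference between regions, has 3 windows, which held 0 TATAAA and 0 GGGCGG, and 1 of them held 1 CACGTG. Of 32851 RefSeq promoter windows of the same length, 12.4% held TATAAA, 32.7% GGGCGG and 6.02% CACGTG on either strand. A match is a description of the letters and was not tied to any measured level.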

How the data were processed

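For 24 libraries the authors mapped single-end reads with Hisat2 (GRCm38, Ensembl v99) and deposited HTSeq-count raw counts per gene, without normalization. The version of these tools and the strand setting of the counting are not given in the sources used here; bcl2fastq was version 2.17.1.14 per the labels. The methods name a total RNA kit with ribosomal RNA removal and the labels an mRNA kit. Deposited tables of the authors' normalised values and own comparisons (fold changes and p-values) were not used. The Ts66Yah libraries were not analysed here.

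Identifiers were matched to GENCODE vM21 (GRCm38), which held 99.6% of the 55385 genes; 0 columns of counts were left out and 0 rows named no gene. Counts were scaled by TMM and tested with edgeR 4.0.16 (R 4.3.3) by the quasi-likelihood test after filterByExpr, with Benjamini-Hochberg adjustment over all genes tested (17355 in the HIP, 17049 in the EC) and a threshold of 0.05. Standard errors are the log2 fold change over the square root of F. HIP and EC libraries with the same number in their titles come from 1 mouse, so region and interaction fits had a term for each mouse. Same-mouse libraries correlated best with each other in all 12 mice (0.178 to 0.426, deviations from group means). Log2 ratios of counts had 0.5 added and were tested by exact permutation (scipy 1.17.1). log2 CPM for correlations used a prior count of 2. Intervals cover counting error and the spread between these mice, and the limit given for a count of 0 covers counting error only. Alternatives were DESeq2 1.42.0, its size factors within edgeR, no filter, at least 10 counts in every library, the replicate number as a block and leaving out each mouse.

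The members, gene lists and tests were chosen with earlier results of these data known. In each list the text names up to 4 genes called between genotypes (or the most abundant, until 2 are named), and up to 3 called in wt between regions with the largest fold change; the 3 genes most like a member have the highest Pearson correlation of log2 CPM deviations; genes called by DESeq2 only were named after their values were seen. The list of cortical marker genes is not reported here.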

Additional observations from a re-analysis of the deposited data

Results flagged for a closer look

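Libraries were marked when the gap between the highest or lowest library of a group of 6 and its nearest neighbour exceeded Dixon's 95% critical value as a share of the group's range. Of 152 groups examined, 15 were marked, and chance marks about 1 group in 20.

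Among the members, 3 of the marks fell on the library labelled Ts65Dn replicate 3, as the lowest of its group: Dscam in the HIP at 74.5 CPM (next 108), Jam2 in the HIP at 48.6 CPM (next 68.3) and Igsf5 in the EC at 0 CPM (next 0.198). The log2 ratio of Jam2 to Jam3 of that library in the HIP, 0.91 (next 1.35), was marked as well. Outside the members, the same mouse was marked as lowest for Cntn6 (25.4 CPM) and B3gnt9 (2.02 CPM) in the Ts65Dn EC and as highest for Hapln2 (25.4 CPM) in the Ts65Dn HIP. Over the triplicated genes this mouse was at the wt level in both regions, as given above. Whether it carries the extra chromosome was not tested here beyond these counts.

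Igsf5 was highest in wt EC replicate 4, at 0.400 CPM (next 0.165), which rests on 11 counts. Adamts5 was highest in wt HIP replicate 2, at 3.11 CPM (next 2.16), and without that library Adamts5 had its lowest adjusted p between genotypes in the HIP, 0.0545 by edgeR.

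The other marked values were Alcam in Ts65Dn HIP replicate 5 (155 CPM, next 124), Jam3 in Ts65Dn HIP replicate 2 (30.1 CPM, next 25.9), Lnx1 in wt EC replicate 1 (15.2 CPM, next 13.3), Adamts3 in Ts65Dn EC replicate 6 (13.1 CPM, next 9.04), B3galnt1 in wt HIP replicate 6 (52.7 CPM, next 48.2) and B3galnt1 in Ts65Dn HIP replicate 1 (45.5 CPM, next 43.3). Each was the highest of its group.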

How the results depend on the processing

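The fitted fold changes of the triplicated members between genotypes kept their direction under each alternative run, and the calls did not. With DESeq2 in place of edgeR the HIP had 589 DEGs and the EC 1098, and 5 and 4 triplicated members were called. Without a filter on low counts the EC had 275 DEGs and the interaction 37. Leaving out 1 mouse at a time gave between genotypes 54 to 318 DEGs (HIP) and 90 to 685 (EC), 1 to 4 and 1 to 5 triplicated members called, 7587 to 8769 DEGs between regions in Ts65Dn and 9680 to 10196 in wt, 3 to 4 and 4 to 5 members called between regions, and 0 genes in the interaction. The differences in log2 ratio ranged over these fits from 0.37 to 0.48 (HIP) and 0.20 to 0.30 (EC) for Dscam to Dscaml1, from 0.32 to 0.46 and 0.26 to 0.48 for Jam2 to Jam3, and from 0.52 to 0.79 and 0.26 to 0.49 for Adamts5 to Adamts4.

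The wt and Ts65Dn mice share replicate numbers but are different mice, and libraries of the same number correlated from -0.198 to 0.166, with 2 of 12 pairs best with their own number, so the numbers were not taken to pair them. With the replicate number as a block, the HIP had 29 DEGs and the EC 36, with 0 and 1 triplicated members (Dscam) among them. The EC calls of Dscaml1 (block adjusted p = 0.0623), Cadm2 (0.0561), Negr1 (0.118), Hapln1 (0.0869) and P2ry12 (0.0665) and the HIP calls of Alcam (0.122) and P2ry12 (0.0734) were not made under the block either, with their direction kept. The Jam2 to Jam3 ratio in the HIP differed by 0.36 in both, with an exact p of 0.0625 under the block.

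The near-zero change of Dscam between regions in wt turned from 0.00 to -0.01 (DESeq2, and no replicate block for the mouse), to -0.00 (DESeq2 size factors, no filter) and ranged from -0.03 to 0.05 with a mouse left out. The interaction of Igsf5 turned negative in 5 of 12 fits with 1 mouse left out (-0.24 to 0.39), and that of B3galt5 positive in 5 (-0.08 to 0.04). The causes were not tested. Igsf5 has too few counts for a change to be shown, and Adamts5 has at most 161 counts per library.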
